A study of Homo sapiens with 8 samples.

Results

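All-trans retinoic acid (ATRA) was compared with its ethanol vehicle in NB4 cells that carried a scrambled short hairpin RNA (shScr), the negative control line of a study of the transcription factor TFEB. NB4 is an established human acute promyelocytic leukaemia line. Hairpins were delivered by lentivirus, cells received 1 µM ATRA or ethanol for 72 h, and RNA was sequenced from 2 samples per group, 4 in the shScr vehicle and shScr ATRA groups together. The same treatments were given to a line with a hairpin against TFEB (shTFEB), which brings the series to 4 groups and 8 samples. All groups carry a lentiviral hairpin, so no untransduced cells enter these values, and the labels do not say whether the line is a clone or a mixed population. The titles of both shScr ATRA samples also contain the word vehicle, and the treatment field decided their group. The values are FPKM, counts of fragments corrected for transcript length and sequencing depth, summed over the RefSeq models of each gene symbol. Of 22627 symbols, 11052 averaged 1 FPKM or more across the 4 tables, and these are the genes compared. The tables hold 1 value per gene and group, so the spread between the 2 samples cannot be computed and no test or p-value is given. Differences are log2 ratios of ATRA to vehicle after adding 1 FPKM to both values, which understates the change of low genes. The words rose and fell are kept for ratios of at least 1 in size (2-fold), which is a mark of size and not a test.

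Acute promyelocytic leukaemia arises from the PML-RARA fusion, a retinoic acid receptor that holds target genes silent and keeps promyelocytes from maturing. Pharmacological ATRA converts the fusion into an activator and marks it for degradation, and the cells stop dividing and take on features of neutrophils: a lobed nucleus, an oxidase that makes superoxide, integrins, and receptors for bacterial peptides. Promyelocytes make the primary granules. Secondary and tertiary granules are made later in maturation, and the loss of primary granule transcripts is part of the normal sequence.

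Of the 11052 genes, 1384 rose (12.5%) and 1676 fell (15.2%), so that 27.7% passed the 2-fold mark in either direction. Of 677 compared genes under 1 FPKM in shScr vehicle 427 rose, and of 528 under 1 FPKM in shScr ATRA 289 fell. Genes low in 1 group could pass the filter through the others, so these directions are partly set by the filter. Among 9953 genes of at least 1 FPKM in both shScr groups, 957 rose and 1387 fell. The falls were more numerous and the rises were larger. At least 8-fold differences numbered 302 higher and 115 lower, and at least 32-fold differences 84 higher and 25 lower. The median log2 ratio over all compared genes was −0.15. After median-of-ratios rescaling 1612 genes were past the mark upwards and 1256 downwards, and after upper-quartile rescaling 1550 and 1359, so that the share of higher genes among those marked went from 45.2% to 56.2% and 53.3%. Which direction was the more frequent therefore depends on the scaling. Of the 3060 genes past the mark, the deposited bounds of the 2 values did not overlap for 1338 that rose and 1607 that fell. The share without overlap among all compared genes is not given here. The bounds enclosed their own FPKM in only 79.2% (vehicle) and 79.5% (ATRA) of models, so a lack of overlap is not a test of the mark. In bulk RNA, fewer cells of a type and less RNA per cell cannot be told apart.

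**Figure D1:**
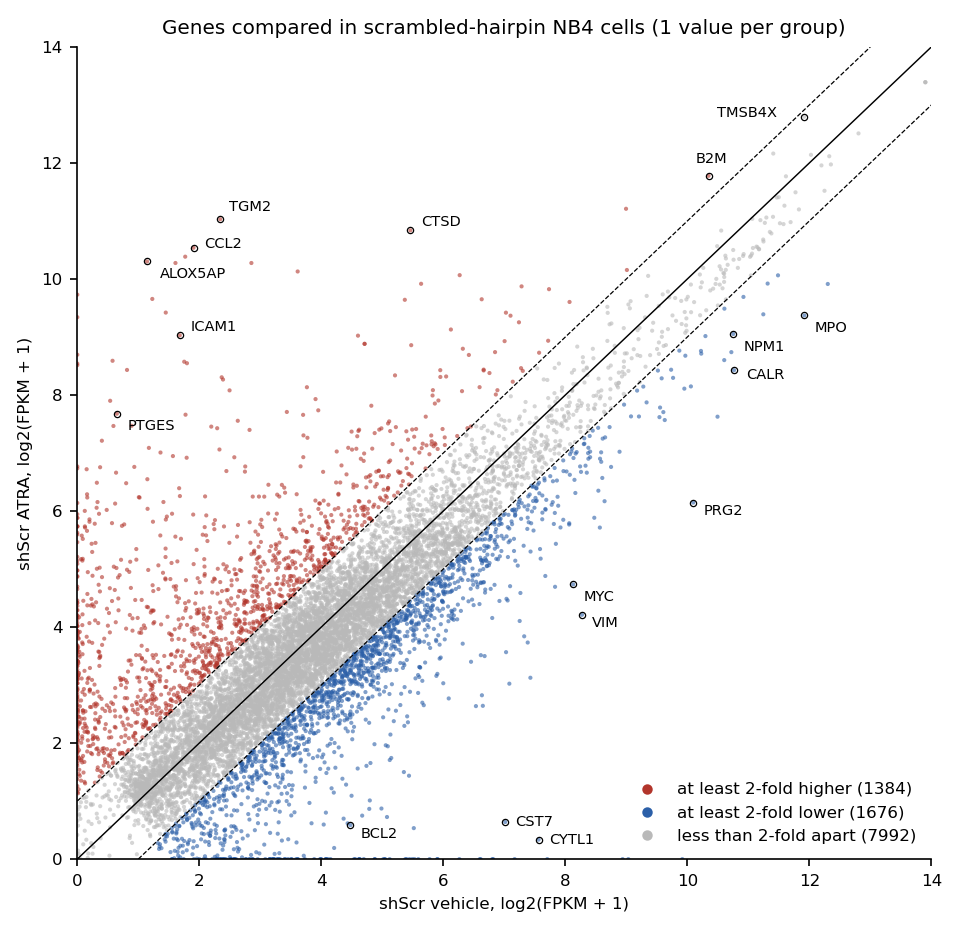
Level of each of the 11052 compared genes in shScr vehicle (horizontal) and shScr ATRA (vertical), both as log2(FPKM + 1), with 1 point per gene. The solid line marks equal values and the dashed lines the 2-fold mark; TGM2, ALOX5AP and CCL2 lie far above the diagonal, and MPO, PRG2, MYC and VIM far below it. Points on an axis are genes listed at 0 in that table.

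The marked genes were spread over all levels of expression. With small RNAs left out, and genes placed by the mean of both shScr values, 12.8% rose and 11.9% fell among 2701 genes with a mean of 1 to 5 FPKM. Among 619 genes with a mean of 100 FPKM and over, 13.2% rose and 18.6% fell. The median log2 ratio went from 0.00 in the first of these classes to −0.39 in the second. By kind of gene, small nucleolar RNAs stood apart, with 58 of 115 lower and 10 higher, whereas long noncoding RNAs had 44 higher and 31 lower of 268. Values of small RNAs in these libraries are uneven: of the 263 compared symbols listed at 0 in a shScr table, 124 are small RNAs.

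**Figure D2:**
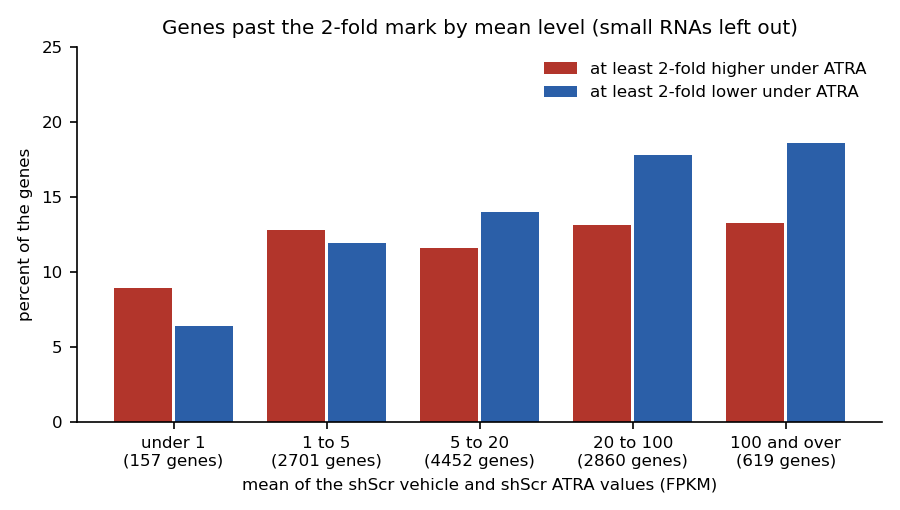
Percent of genes at least 2-fold higher (red) and at least 2-fold lower (blue) under ATRA, in 5 classes of mean FPKM over shScr vehicle and shScr ATRA, small RNAs left out. The share of lower genes reaches 18.6% in the class of 100 FPKM and over, where 13.2% are higher.

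Counted in FPKM and not as ratios, the largest changes were looked for among genes at a single locus, small RNAs left out. The actin-sequestering thymosin gene TMSB4X gained most, going from 3862 to 7116 FPKM, although its log2 ratio of 0.88 stayed under the mark. TGM2, which encodes tissue transglutaminase (hg19 chromosome 20, 36756864 to 36793700), gained 2087 FPKM. The ferritin light chain gene FTL went from 509 to 2369 FPKM. On the other side MPO, the peroxidase of primary granules, fell by 3209 FPKM, the largest loss of any gene ranked. The loss of PTMA (2550 to 969 FPKM) and of the nucleolar gene NPM1 (1725 to 530 FPKM) passed the mark as well. Several of the 10 largest losses were ribosomal protein genes under the mark, such as RPS6, at 7162 FPKM under vehicle and 5833 FPKM under ATRA. With small RNAs left out, the highest 100 genes held 39.2% of the summed FPKM under vehicle and 37.1% under ATRA.

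Genes of retinoid handling were described first, since ATRA is their ligand or substrate. Of 11 compared members 4 rose and 1 fell. STRA6, the retinol transporter, went from 0.588 to 27.9 FPKM (log2 ratio 4.19), and CYP26B1, a hydroxylase that breaks down retinoic acid, from 0.275 to 25.5 FPKM (4.38). DHRS9, a retinol dehydrogenase, went from 12.4 to 43.7 FPKM (1.74). The other hydroxylase gene, CYP26A1, stayed low, at 0.0268 FPKM under vehicle and 0.871 FPKM under ATRA. The receptors themselves moved little or fell: RXRA, the partner of retinoic acid receptors, fell from 29.4 to 7.2 FPKM (−1.89), and RARA stood at 8.17 and 11.3 FPKM. PML, the other partner of the fusion, stood at 13.4 and 19.0 FPKM (0.47), and fusion transcripts cannot be told from normal ones in these tables. RARB is listed at 0 in both.

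Of 23 genes known from earlier work to be induced by retinoids in leukaemic or other cells, 20 were compared and 19 of these rose. Their median log2 ratio was 3.53, where that of all compared genes was −0.15. The list was picked for such induction and with earlier results of these data known, so its direction is no independent evidence. The genes that rose include ID2, an inhibitor of basic helix-loop-helix factors, from 0.537 to 69.0 FPKM, and CD38, a surface ectoenzyme, from 11.6 to 108 FPKM. UBA7, the activating enzyme of ISG15, went from 4.47 to 32.1 FPKM (2.60). The transcriptional repressor gene HIC1 went from 0.0586 to 15.4 FPKM (3.95).

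**Figure D3:**
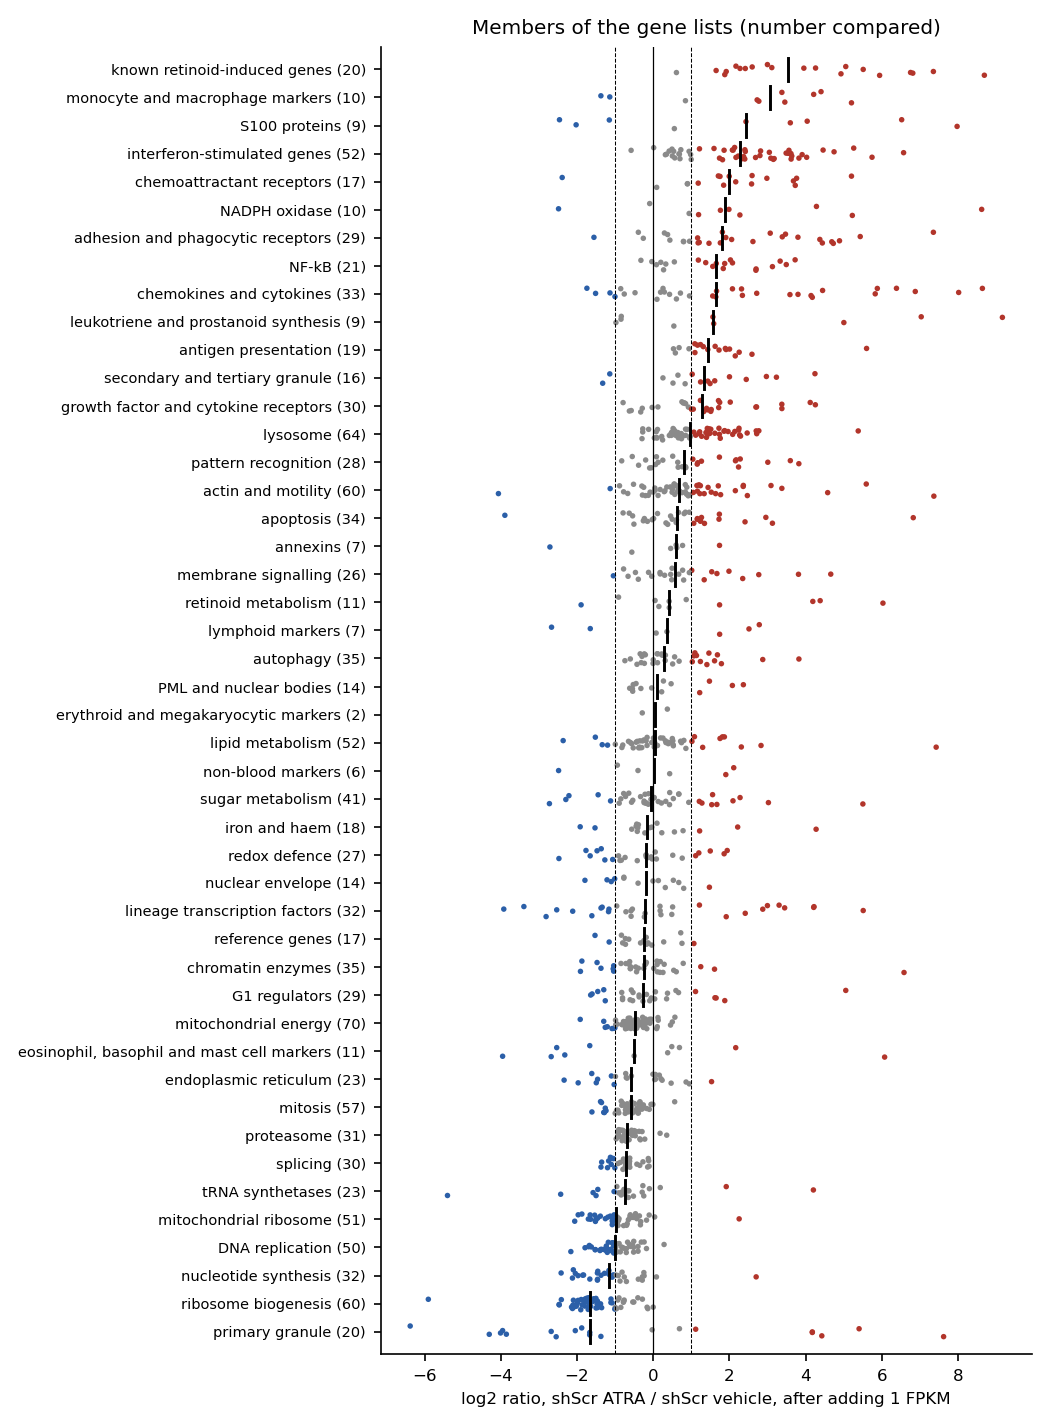
Log2 ratio of ATRA to vehicle in shScr cells for each compared member of 46 gene lists, 1 point per gene, ordered by the list median (black bar), with the number compared in brackets. Red and blue points are past the 2-fold mark (dashed); ribosome biogenesis and primary granule genes have the lowest medians (−1.65 and −1.67) and known retinoid-induced genes the highest (3.53).

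Transcription factors of the blood lineages divided by role. Among the CCAAT/enhancer-binding proteins, CEBPE, which drives late granulocyte maturation, rose from 27.2 to 224 FPKM (3.0), and CEBPB from 1.88 to 27.4 FPKM (3.30). CEBPA, which acts earlier in the lineage, fell from 35.5 to 4.20 FPKM (−2.81). Of 11 granulocyte and monocyte factors 8 rose, among them EGR1 (1.57 to 46.8 FPKM) and BCL6 (0.120 to 7.21 FPKM). GFI1, a repressor needed for neutrophil development, fell from 48.2 to 21.0 FPKM (−1.16). Progenitor factors had no rise and 5 falls in 11. WT1 went from 26.6 to 0.822 FPKM (−3.92), GATA2 from 10.1 to 0.918 FPKM (−2.53) and MYB from 114 to 25.5 FPKM (−2.11). RUNX1 did not pass the mark (20.7 and 29.9 FPKM).

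The granule genes separated into those that fell and those that rose. Of 20 primary granule genes 12 fell and 6 rose (median −1.67). The serine protease genes PRTN3 (379 to 119 FPKM) and AZU1 (56.5 to 14.7 FPKM) fell with MPO, and LYZ, the lysozyme gene, fell from 66.8 to 25.2 FPKM (−1.37). CST7, an inhibitor of cysteine proteases, fell furthest of the list, from 128 to 0.557 FPKM (−6.38). ELANE, the elastase gene, is listed at 0 in both tables. The members that rose do not share that course: BPI, which binds bacterial endotoxin, went from 0.759 to 345 FPKM, the defensin gene DEFA4 from 1.22 to 92.6 FPKM (5.40), and CTSC, the protease that activates the granule serine proteases, from 157 to 341 FPKM (1.11). The defensin genes DEFA1, DEFA1B and DEFA3, which account for the other 3, are near-identical copies, and their separate values are uncertain.

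Of 28 secondary and tertiary granule genes 16 were compared, of which 10 rose and 2 fell (median 1.34). The 10 include B2M, the class I light chain, which is not particular to granules (1302 to 3514 FPKM, 1.43). Classical markers of secondary granules were not among the genes that rose. LTF, the lactoferrin gene, is listed at 0 under vehicle and stood at 0.357 FPKM under ATRA, and LCN2 is listed at 0 in both tables. Such a 0 can be a failed estimate, since EEF1A1, a translation factor gene that every cell uses, is also listed at 0 in both. The cathelicidin gene CAMP stood at 0.333 and 1.09 FPKM, under the mark. The risers were led instead by ORM1 (0.293 to 23.5 FPKM, 4.24), an acute-phase protein gene with the near copy ORM2, and by CHI3L1 (30.7 to 171 FPKM, 2.44). LILRB2, an inhibitory receptor gene, went from 0.285 to 9.06 FPKM. MMP9, the gelatinase, did not pass the mark (20.2 and 29.4 FPKM), and ANPEP, the aminopeptidase CD13, fell from 117 to 46.2 FPKM (−1.33).

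Of the 10 genes of the phagocyte oxidase, 7 rose and 1 fell (median 1.87). The membrane cytochrome subunit CYBA went from 100.2 to 342 FPKM (1.76), and the cytosolic subunit NCF4 from 3.36 to 16.3 FPKM (1.99). RAC2, the GTPase of the complex, went from 65.1 to 319 FPKM (2.27). The exception was HVCN1, the proton channel that balances the charge of the oxidase, which fell from 60.4 to 9.97 FPKM (−2.48). NCF1 also rose, but NCF1, NCF1B and NCF1C are near-identical, so their separate values are uncertain.

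Receptors that guide and attach neutrophils rose as a group. Of 26 chemoattractant receptor genes 17 were compared, of which 13 rose and 1 fell. FPR2 and FPR1, receptors for bacterial formyl peptides, went from 0.113 to 13.2 FPKM (3.68) and from 0.0577 to 3.21 FPKM (1.99), CXCR2, a receptor for CXCL8, from 0.792 to 9.72 FPKM (2.58), and the platelet-activating factor receptor gene PTAFR from 6.09 to 55.0 FPKM (2.98). Of 11 chemokine receptor genes 7 were compared, and all 7 rose. Members under 1 FPKM in both vehicle groups, such as CXCR2 and CX3CR1, could pass the filter only through the ATRA groups. Their rise is therefore partly set by the filter. S1PR3, a sphingosine phosphate receptor, fell from 5.94 to 0.325 FPKM. Adhesion and phagocytic receptors rose in 20 of 29 cases and fell in 1, CD99 (49.8 to 16.3 FPKM). The integrin subunits ITGAX and ITGB2 went from 1.22 to 64.7 FPKM (4.89) and from 43.4 to 463 FPKM (3.39). FCER1G, the signalling chain shared by Fc receptors, went from 12.6 to 280.1 FPKM (4.37).

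Of 60 genes of the actin cytoskeleton 21 rose and 2 fell (median 0.68). Among those that rose were FGR, a SRC family kinase, from 0.453 to 238 FPKM (7.36), and PLCB2, a phospholipase C, from 2.21 to 75.5 FPKM (4.58). MYO1F, a myosin, and FERMT3, the integrin activator kindlin 3, had log2 ratios of 2.36 and 2.47. VIM, the intermediate filament gene vimentin, went the other way, from 308 to 17.5 FPKM (−4.06). Of 14 nuclear envelope genes 4 fell and 1 rose (median −0.20). Among all compared genes 15.2% fell and 12.5% rose (median −0.15), so this list as a whole lay near them. LMNB1, a lamin of the nuclear lamina, fell from 235 to 67.2 FPKM (−1.79), and LMNB2, LMNA and SUN1 fell with log2 ratios of −1.10, −1.01 and −1.21, while SUN2 rose from 15.4 to 44.5 FPKM (1.47). LBR, the lamin B receptor, whose loss prevents lobing of neutrophil nuclei, stood at 100.6 and 176 FPKM (0.80), under the mark.

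**Figure D4:**
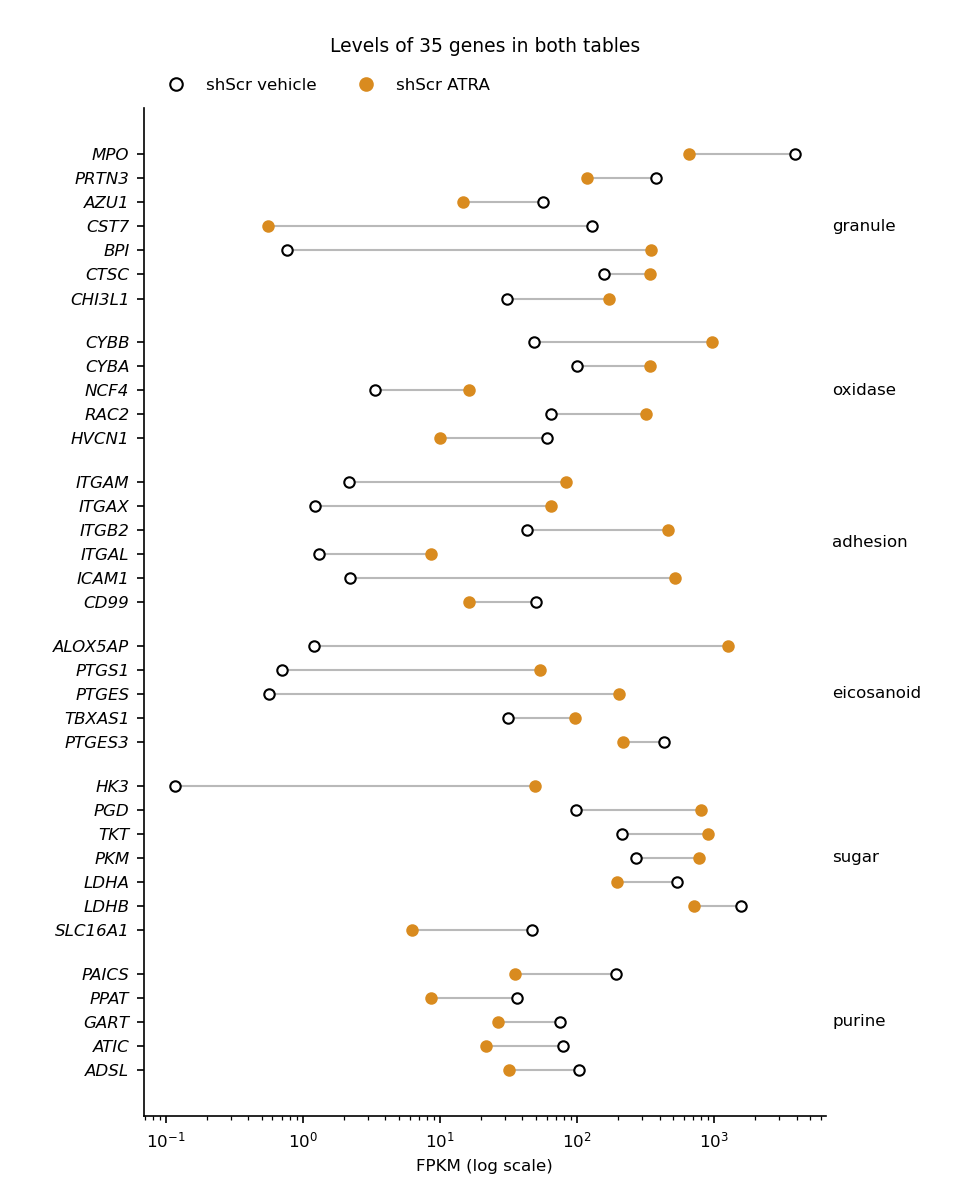
FPKM (log axis) of 35 genes in shScr vehicle (open) and shScr ATRA (filled), grouped by function, with 1 value per group and no error bar. In the oxidase group only HVCN1 goes down, in the sugar group HK3, PGD, TKT and PKM go up while LDHA, LDHB and SLC16A1 go down, and all 5 purine genes go down.

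Lipid mediators and secreted signals were among the strongest changes. ALOX5AP, the activating protein of 5-lipoxygenase (hg19 chromosome 13, 31287615 to 31338565), reached 1262 FPKM from 1.21 FPKM, while ALOX5 itself stayed at 0.0940 and 0.595 FPKM. In prostanoid synthesis PTGES, a prostaglandin E synthase, went from 0.567 to 204 FPKM (7.03) and the cyclooxygenase gene PTGS1 from 0.704 to 53.6 FPKM (5.00). The inducible cyclooxygenase gene PTGS2 was at 0 and 0.0343 FPKM. Of 50 chemokines and cytokines 33 were compared, of which 18 rose and 4 fell. Members under 1 FPKM in both vehicle groups, such as CXCL10 and CCL4, could pass the filter only through the ATRA groups. Their rise is therefore partly set by the filter, and the same holds for members of other lists that were this low. CXCL8, which attracts neutrophils, went from 4.24 to 307 FPKM (5.88), CXCL10 from 0.508 to 176 FPKM (6.87), CCL4 from 0.296 to 107 FPKM (6.38) and IL1B from 0.258 to 70.3 FPKM (5.82). The 4 that fell were MIF (384 to 114 FPKM), TNF (75 to 33.6 FPKM), IL32 (56.8 to 27.8 FPKM) and IL1RN, the interleukin 1 receptor antagonist (2.58 to 0.255 FPKM).

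Receptors and signalling genes of inflammation also moved upwards. Cytokine receptors rose in 18 of 30 cases with no fall, among them CSF3R, the receptor of granulocyte colony-stimulating factor (11.1 to 77.2 FPKM, 2.69), CSF2RB (0.174 to 21.4 FPKM) and IL10RA (0.238 to 20.5 FPKM). Pattern recognition genes rose in 12 of 28 cases with no fall. MYD88, the adaptor of Toll-like receptors, went from 8.69 to 76.8 FPKM (3.01), and NLRC4, an inflammasome sensor, from 0.594 to 21.5 FPKM (3.82). Of 21 genes of the NF-kB pathway 14 rose and none fell. They comprise subunits, such as NFKB2 (7.17 to 51.9 FPKM) and RELB (2.46 to 9.88 FPKM), and inhibitors that NF-kB itself is known to induce, such as NFKBIA (12.7 to 153 FPKM, 3.49) and TNFAIP3 (4.30 to 52.2 FPKM, 3.33). Negative regulators of cytokine and kinase signals rose in 9 of 26 cases and fell in 1, SOCS2, with RGS1 (0.289 to 31.5 FPKM), PIM1 (3.02 to 26.4 FPKM) and DUSP6 (59.5 to 239 FPKM) among the risers.

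Genes known to be induced by interferon rose in 36 of 52 cases and none fell (median 2.28). The transcription factors IRF9 and IRF7 went from 1.92 to 33.4 FPKM (3.56) and from 2.07 to 25.1 FPKM (3.08). OAS3, an antiviral nucleotide synthase, went from 0.112 to 104 FPKM and IFIT3 from 1.66 to 70.3 FPKM (4.74). The response was not uniform within the list: MX1 stayed under 1 FPKM (0.173 and 0.906 FPKM), as did XAF1 (0.297 and 0.882 FPKM) and IFI44 (0.00844 and 0.491 FPKM), and IFITM2, at 179 and 181 FPKM, was high in both. In cells labelled shTFEB, which share no sample with these, 50 of the 52 rose under ATRA (median 4.29), where 11.5% of all compared genes rose. The difference between lines has no replicate check.

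Because the interferon-stimulated response element is a known site of such genes, the promoters of the RefSeq table (GRCh38.p14) were searched on both strands for 2 copies of TTTC with any 2 bases between, from 250 bases before to 50 after the start. The motif was in 3.65% of all 27305 promoters, in 2.95% of those of compared genes and in 6.51% of those of genes that rose. Among the compared interferon-stimulated genes, 39 have a promoter there, of which 25 held it (64.1%). Of these 39 genes 25 rose, and 14 of those held it (56%), a smaller share than in the list as a whole. The 200 bases before the start of the genes with the largest log2 ratios that held it are shown 5′ to 3′ on the gene's strand, with matches in capitals. OAS3 (chr12:112938274-112938473, plus strand) went from 0.112 to 104 FPKM, and IFI6 (chr1:27672193-27672392, minus strand) from 3.58 to 175 FPKM.
OAS3: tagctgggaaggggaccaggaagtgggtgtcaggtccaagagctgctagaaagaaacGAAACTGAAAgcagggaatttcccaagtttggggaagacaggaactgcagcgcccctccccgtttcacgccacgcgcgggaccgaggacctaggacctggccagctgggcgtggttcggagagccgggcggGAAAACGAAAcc
IFI6: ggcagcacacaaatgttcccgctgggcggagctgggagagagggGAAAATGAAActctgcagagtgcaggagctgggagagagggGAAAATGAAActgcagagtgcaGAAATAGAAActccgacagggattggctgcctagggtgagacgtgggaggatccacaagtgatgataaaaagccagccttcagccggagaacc
OAS3 has 2 matches, the nearer ending close to the start, and IFI6 has 3, of which 2 lie in a repeated stretch. A match is a description of the letters and not a measured site.

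Class I antigen presentation genes rose in 14 of 17 cases: HLA-B went from 155 to 937 FPKM (2.59), although reads of HLA genes can be split between similar copies, TAPBP from 18.4 to 76.9 FPKM (2.00) and the immunoproteasome subunit PSMB9 from 14.8 to 69.0 FPKM (2.15). By contrast none of 31 constitutive proteasome genes passed the mark in either direction (median −0.69). Of class II, the invariant chain CD74 went from 0.280 to 60.9 FPKM (5.60), while HLA-DRA stayed at 0.0119 and 0.0114 FPKM.

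Lysosomal genes rose in 31 of 64 cases and none fell (median 0.96). The hydrolases NEU1 and CTSZ had log2 ratios of 2.14 and 2.25, and NPC2, a cholesterol carrier of the lysosome, went from 25 to 126 FPKM (2.29). LAMP1, an abundant membrane protein, stood at 117 and 127 FPKM, and the mark was passed by 22 of 35 hydrolase genes and 9 of 29 membrane and V-ATPase genes. Autophagy genes rose in 12 of 35 cases and none fell, where 12.5% of all compared genes rose and 15.2% fell. DRAM1, a lysosomal membrane protein, went from 1.24 to 30.7 FPKM (3.82). A form of the CLEAR element that TFEB and its relatives bind, CACGTG with GT before it and AC after it, was searched in the same promoters. It was in 0.359% of all promoters and in 0.791% of those of compared genes. Genes that rose held it in 0.592% and genes that fell in 0.706%, both under the share of compared genes. It was in 3 of 44 lysosomal genes and in none of 31 autophagy genes. The lysosomal genes that rose and held it were MCOLN1, a calcium channel (1.27 to 7.21 FPKM, chr19:7522424-7522623, plus strand), and GAA, the acid glucosidase (3.31 to 10.5 FPKM, chr17:80101381-80101580, plus strand), again with matches in capitals.
MCOLN1: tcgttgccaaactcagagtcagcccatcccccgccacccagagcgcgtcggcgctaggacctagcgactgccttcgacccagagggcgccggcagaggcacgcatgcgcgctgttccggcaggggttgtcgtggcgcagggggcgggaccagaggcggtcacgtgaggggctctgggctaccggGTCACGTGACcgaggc
GAA: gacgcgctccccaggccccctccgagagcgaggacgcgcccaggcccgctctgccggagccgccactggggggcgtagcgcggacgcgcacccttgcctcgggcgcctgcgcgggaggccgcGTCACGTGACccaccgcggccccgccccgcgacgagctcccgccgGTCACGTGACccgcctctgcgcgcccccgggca
GAA holds the 10 letters at 2 places and MCOLN1 at 1, and the third lysosomal gene, ATP6V1G1, did not pass the mark (44.9 and 64.8 FPKM). TFEB itself went from 1.20 to 19.4 FPKM (3.21). Retinoic acid response elements were searched as AGTTCA or AGGTCA in any pairing with 5 bases between (3 of 27305 promoters) and as AGGTCA repeated with 2 bases between (0 of 27305), and neither was in the promoter of a compared gene.

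Genes of growth fell, with different depth by process. Ribosome biogenesis genes fell in 45 of 60 cases and none rose (median −1.65). The nucleolar scaffolds NOLC1 (229 to 42.3 FPKM, −2.41) and NCL (779 to 208 FPKM, −1.90), the methyltransferase gene FBL (165 to 50.7 FPKM) and the RNA polymerase I subunit POLR1B (23.4 to 5.15 FPKM) are examples. PPAN stood at 58.7 FPKM under vehicle and is listed at 0 under ATRA. In shTFEB cells it stood at 74.1 and 27.4 FPKM, so the size of its fall in shScr cells is uncertain. The E-box CACGTG, which MYC and many other factors bind and which lies inside the CLEAR element, was in 10.3% of the promoters of compared genes, 14.7% of those of genes that fell and 7.79% of those of genes that rose. It was in 17 of 47 promoters of ribosome biogenesis genes and in 14 of the 35 that fell. LYAR, a nucleolar factor, went from 109 to 24.2 FPKM (−2.12, chr4:4290022-4290221, minus strand), and UTP20, a processing factor, from 12.9 to 3.20 FPKM (−1.73, chr12:101279905-101280104, plus strand). Their 200 bases before the start are printed with the E-box in capitals.
LYAR: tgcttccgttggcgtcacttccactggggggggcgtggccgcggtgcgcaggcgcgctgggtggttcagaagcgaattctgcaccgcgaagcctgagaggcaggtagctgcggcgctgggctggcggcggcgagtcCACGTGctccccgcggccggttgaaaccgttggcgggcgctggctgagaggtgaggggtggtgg
UTP20: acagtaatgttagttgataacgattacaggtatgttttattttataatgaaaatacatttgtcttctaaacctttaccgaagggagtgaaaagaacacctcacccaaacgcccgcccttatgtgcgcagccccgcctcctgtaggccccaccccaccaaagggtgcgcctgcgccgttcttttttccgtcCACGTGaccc
Each holds the E-box once in these 200 bases. MYC went from 279 to 25.6 FPKM (−3.39).

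Purine synthesis fell almost completely as a list, with 13 of 14 genes past the mark. PAICS, which catalyses consecutive steps of the pathway, went from 192 to 35.2 FPKM (−2.42), PPAT, which opens it, from 36.6 to 8.58 FPKM (−1.97), and ATIC, which closes it, from 79.1 to 21.6 FPKM (−1.83). Of 18 pyrimidine and deoxynucleotide genes 6 fell, among them CAD (39.4 to 8.81 FPKM, −2.04), and 1 rose: SAMHD1, which degrades deoxynucleotides, from 23.1 to 155 FPKM (2.70). The mitochondrial ribosome fell in 24 of 51 cases, MRPS26 furthest (59.4 to 13.5 FPKM, −2.06), with MRPS6 the 1 member that rose (24.1 to 119 FPKM). Of 70 genes of the respiratory chain and the citric acid cycle 7 fell and none rose, a share of falls under the 15.2% of all compared genes. Of 23 genes of tRNA synthetases and their complex partners 6 fell and 2 rose. Those that rose were WARS1, which interferon is known to induce (51.4 to 197 FPKM), and the partner gene EEF1E1. EEF1E1 is listed at 0 under vehicle and in both shTFEB groups, so its rise is uncertain.

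DNA replication genes fell in 24 of 50 cases with no rise (median −0.99). Of 57 mitosis genes 7 fell and none rose (median −0.58), and this share of falls is below the 15.2% of all compared genes. MCM4 went from 86.4 to 24.3 FPKM (−1.79), POLD2, a polymerase delta subunit, from 148 to 32.3 FPKM (−2.16), and CDC6, which loads the helicase, from 31.9 to 11.5 FPKM (−1.40). PCNA, the sliding clamp, missed the mark (330.4 and 165 FPKM, −0.99). The 7 mitosis genes were MYBL2, MAD2L1, CCNA2, STMN1, the tubulin genes TUBB and TUBA1B, and CENPM. Of 29 G1 regulators 5 rose and 5 fell, near the shares of all genes (12.5% and 15.2%). CDK4 (123 to 38.7 FPKM) and CDC25A (23.5 to 7.06 FPKM) fell, while the cyclin gene CCND1 (6.01 to 14.1 FPKM, 1.11) and BTG2, an antiproliferative gene (0.184 to 38.3 FPKM, 5.05), rose. Splicing factors fell in 9 of 30 cases with no rise, and endoplasmic reticulum genes in 7 of 23 with 1 rise, CALR, the chaperone calreticulin, furthest (1739.9 to 343 FPKM, −2.34).

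Other metabolic lists held rises and falls together. Of 41 sugar genes 9 rose and 5 fell, of 52 lipid genes 9 rose and 4 fell, of 18 iron and haem genes 3 rose and 2 fell, and of 27 redox genes 5 rose and 7 fell. For all compared genes the shares were 12.5% and 15.2%. In the pentose phosphate pathway, which supplies NADPH, 3 of 7 genes rose and none fell, and PGD went from 98 to 803 FPKM (3.02). Elsewhere among sugar genes HK3, the hexokinase of myeloid cells, went from 0.117 to 49.5 FPKM (5.50) and PKM from 268 to 777 FPKM (1.54), whereas LDHA fell from 539 to 197 FPKM (−1.45). The lactate carriers moved in opposite directions, SLC16A1 from 47.1 to 6.28 FPKM (−2.72) and SLC16A3 from 57.5 to 141 FPKM (1.28). Superoxide dismutases did too: SOD1 of the cytosol went from 196 to 57.0 FPKM (−1.76) and SOD2 of the mitochondrion from 41.5 to 119 FPKM (1.5). ALAS1, which begins haem synthesis, went from 40.3 to 798 FPKM (4.27). G0S2, an inhibitor of lipolysis, and the efflux pump ABCA1 (2.18 to 21.6 FPKM, 2.83) rose in lipid metabolism, where FASN fell (63.9 to 24.7 FPKM).

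Regulators of cell death and of chromatin were counted next. Of 34 apoptosis genes 13 rose and 1 fell, BCL2, which went from 21.3 to 0.501 FPKM (−3.89). Its relatives MCL1 (38.6 to 131 FPKM, 1.74) and BCL2A1 (2.37 to 380.2 FPKM, 6.82) rose. Of 35 chromatin enzyme genes 3 rose and 7 fell, near the shares of all genes. PADI4, the enzyme that citrullinates histones in neutrophil traps, went from 0.854 to 176 FPKM (6.58; hg19 chromosome 1, 17634690 to 17690495). The methyltransferase genes PRMT5 (61.2 to 15.6 FPKM, −1.91) and DNMT3B (21.7 to 5.20 FPKM, −1.87) fell. S100 genes split, with S100A9 going from 11.2 to 1120 FPKM (6.52) and S100A10 from 38.7 to 6.21 FPKM (−2.46).

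Some genes went from almost absent to present. Setting the lower level at under 0.1 FPKM and the upper at 5 FPKM or more, 125 genes were switched on and 78 off. Of these 88 and 70 are listed at 0 in the lower table, where no fold is given, and 42 and 37 are small RNAs. Outside small RNAs and above 0 in both tables, 37 genes were switched on and 8 off. Among the highest of the 37 were ADGRE3, an adhesion receptor of myeloid cells (0.0888 to 63.1 FPKM), THBS1, thrombospondin 1 (0.0897 to 52.3 FPKM), and the potassium channel gene KCNH4 (0.0518 to 46.7 FPKM). MPEG1, a pore-forming protein of phagocytes, went from 0.0596 to 34.4 FPKM, and FFAR3, a receptor for short-chain fatty acids, from 0.0438 to 35.0 FPKM. The 8 that were switched off were TERT, SOX18, CHAT, TAMALIN, CHST13, NOG, GAS2L1 and SH3PXD2A, at 5.21 to 12.1 FPKM under vehicle. TERT, the telomerase catalytic subunit, was the highest of them (12.1 to 0.0406 FPKM).

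Changes in the leading transcript model were few. Among 4064 genes with several models and at least 2 FPKM in both shScr tables, 37 (0.910%) had 1 model with at least 60% of the gene under vehicle and another with at least 60% under ATRA. In 19 of them the same pair of models led in cells labelled shTFEB, each with over 50%. UBA1, the ubiquitin-activating enzyme, changed from a model with 64.4% of its FPKM to another with 72.4%, which begin 3002 bases apart at the end with lower coordinates on chromosome X, while the gene stood at 100.5 and 80.8 FPKM. KEAP1, which holds NRF2 in check, changed in the same way with 66.2% and 66.8%, at 53.7 and 47.1 FPKM. In PTAFR the model that led under ATRA held 39.7 FPKM and is listed at 0 under vehicle, and its end with higher coordinates lies 16992 bases beyond that of the other, which stood at 6.09 and 6.36 FPKM. Cufflinks divides fragments among models by likelihood, so a change of leading model is an estimate and was not checked on junction reads.

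Neighbouring genes sometimes moved together. Runs of at least 4 consecutive compared genes past the mark in 1 direction, with gaps of at most 100 kb, numbered 15 higher and 5 lower (hg19). On chromosome 10 (73079010 to 73611082) SLC29A3, CDH23, C10orf105, VSIR and PSAP had log2 ratios of 1.42 to 4.35, with VSIR, an immune checkpoint gene, going from 4.96 to 121 FPKM. On chromosome 19 (52114756 to 52273779) the sialic acid receptor genes SIGLEC5 and SIGLEC14, which are similar copies, lie beside FPR1 and FPR2, and on another stretch (7696501 to 7744719) RETN, the resistin gene, went from 76.1 to 1071 FPKM beside MCEMP1 (2.42 to 201 FPKM). A run on chromosome 1 (160510884 to 160832692) holds the receptor genes CD84, CD48, SLAMF7 and CD244, and one on chromosome 2 (231033645 to 231410317) the nuclear body genes SP110, SP140, SP140L and SP100. The run of lower genes with the most members, 5, on chromosome 7 (127950436 to 128142978), comprises RBM28, PRRT4, IMPDH1, HILPDA and METTL2B. Overlapping genes share fragments, and 2 genes of the chromosome 10 run overlap their neighbour.

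Markers of other cell types were read beside these results, and the counts below stand against 12.5% of all compared genes that rose and 15.2% that fell. The labelled cell type was checked on MPO, a defining gene of promyelocytes, which stood at 3871 FPKM under vehicle. ELANE, another primary granule gene of that stage, is listed at 0 in both tables, so not every such marker was found. Of 22 monocyte and macrophage markers 10 were compared, of which 7 rose and 2 fell: CSF1R (1.37 to 23.6 FPKM), MERTK (1.73 to 56.8 FPKM) and ADGRE1 (0.548 to 15.9 FPKM) rose, and LYZ and FCN1 fell. The summed FPKM of the compared markers was 86.8 under vehicle and 248 under ATRA. The defining markers C1QA, C1QB, C1QC and MRC1 are listed at 0 in both tables, which can be a failed estimate, and CD14 stood at 0.0180 and 0.913 FPKM. The part of such cells in the rise of chemokine and CX3CR1 transcripts (0.177 to 42.3 FPKM for CX3CR1) was not tested. Of 11 eosinophil, basophil and mast cell genes 5 fell and 2 rose, with PRG2, the major basic protein, at 1094 and 69.8 FPKM and CLC, the Charcot-Leyden crystal protein, at 0.120 and 74.2 FPKM. Of 20 lymphoid markers 7 were compared, of which 3 rose and 2 fell, with a summed FPKM of 97.5 under vehicle and 331 under ATRA. Among them CD4 stood at 34.0 and 116 FPKM, NKG7 at 23.6 and 168 FPKM, CD79A at 2.41 and 18.5 FPKM and CD79B at 8.85 and 0.551 FPKM, while MS4A1, a B cell marker, is listed at 0 in both. Of 17 markers of tissues other than blood 6 were compared, of which 2 rose and 1 fell, with a summed FPKM of 41.8 and 37.7. KRT18, a keratin gene, stood at 29.7 and 22.3 FPKM, and DES, the desmin gene, at 5.29 and 0.126 FPKM. Of 20 erythroid and megakaryocytic markers 2 were compared and neither passed the mark, and the globin genes HBA1, HBA2 and HBB are listed at 0 in both tables. The part of such cells in the results above was not tested.

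The response was compared with that of cells labelled shTFEB, which shares no sample with it. In that line TFEB mRNA was not lower than in shScr cells under vehicle (1.35 against 1.20 FPKM) and was lower under ATRA (8.44 against 19.4 FPKM). There 1270 genes rose (11.5%) and 1159 fell (10.5%). Of the 1384 genes that rose in shScr cells 1060 also rose in the other line (76.6%, and 83.5% of its 1270), and of the 1676 that fell 1002 also fell (59.8%, and 86.5% of its 1159). Marks in opposite directions numbered 9 and 12. The log2 ratios of both lines had a Pearson r of 0.91 and a Spearman rho of 0.94 across 10789 genes other than small RNAs, which is a description over genes that are not independent replicates and share the library type. Smaller falls are part of this: ribosome biogenesis genes fell in 36 of 60 cases there (median −1.10 against −1.65) and DNA replication genes in 10 of 50 (−0.73 against −0.99). Whether these differences exceed the spread between cultures cannot be told from 1 value per group.

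**Figure D5:**
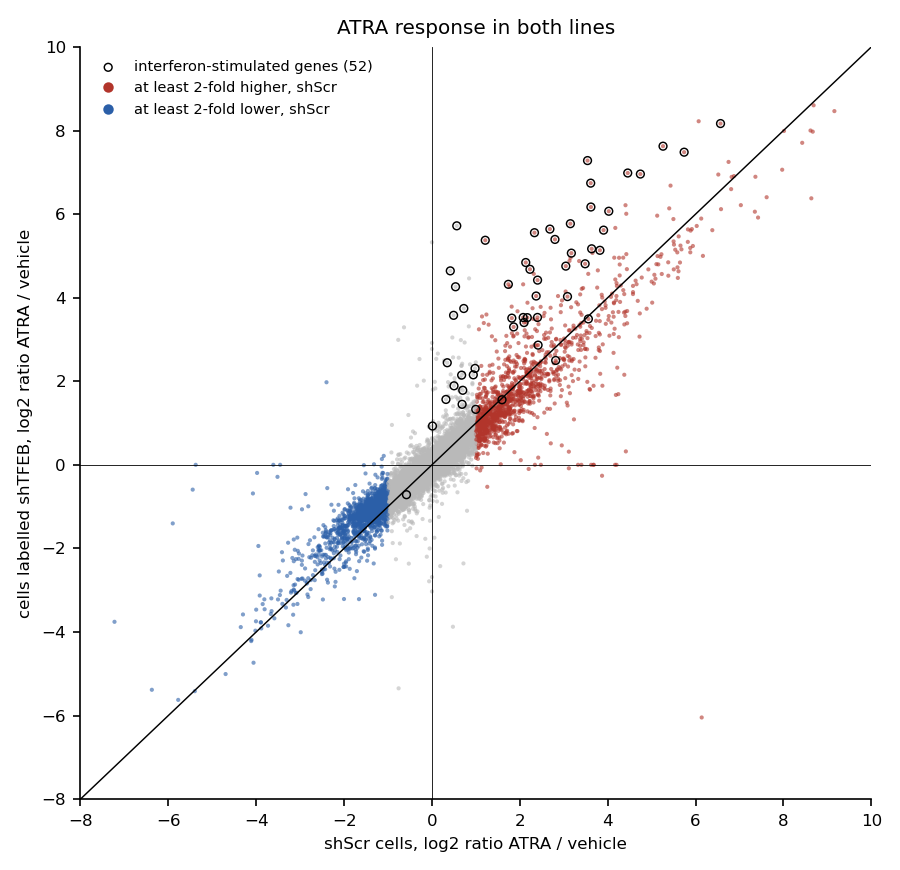
Log2 ratio of ATRA to vehicle in shScr cells (horizontal) and in cells labelled shTFEB (vertical) for compared genes, 1 point per gene, with small RNAs, symbols at several loci, symbols of unnamed or antisense loci and genes with a failed or skipped estimate left out, colours by the shScr ratio. The line marks equal ratios; of the 52 interferon-stimulated genes (circled) 48 lie above it.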

How the data were processed

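RNA from NB4 cells was sequenced after TruSeq library preparation, per the labels' protocols. The deposited FPKM values were made by the authors with TopHat, Cufflinks and Cuffdiff on hg19, per the submitters' processing notes, with versions not given in the sources used here. Each deposited table lists 65986 transcript models, with a single FPKM, its bounds and an estimation status for a group of 2 samples. The labels do not tell how these samples were merged. Among models of 1 FPKM or more with status OK, the bounds enclosed the FPKM in 79.2% (vehicle) and 79.5% (ATRA), and they are therefore not treated as confidence intervals. Symbols came from the RefSeq table of GRCh38.p14 (96.8% of 41159 accessions matched), used for names alone, and coordinates are those of the files on a scale that starts at 1. FPKM were added up per symbol (Python 3.11.15, pandas 2.3.3). Ratios carry a pseudocount of 1 FPKM, and the calculation was tested on simulated data. From the spacing of values under 0.1 FPKM, shScr ATRA was sequenced 1.05 times as deeply as shScr vehicle, and the absolute depth is not given by the files. Genes with a failed or skipped estimate, EEF1A1 among them, were kept. RefSeq promoters were matched by symbol for 8721 of the 11052 compared genes.

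Named genes are the 12 largest rises and falls among genes of at least 5 FPKM and above 0 in both tables, the 10 largest gains and losses in FPKM, up to 6 members per role with the largest change plus defining members, and the leading switched genes, model changes, runs and motif-bearing promoters. A few other list members are named to show what did not move, and some genes that the rule names are not reported here. The 46 lists (1447 genes), the rule and the members were chosen with earlier results of these data known, so no list is independent evidence of its direction. Alternatives were pseudocounts of 0.1 and 5 FPKM, other filters, 2 rescalings, the highest model per symbol, models with status OK, and leaving out small RNAs or genes listed at 0.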

Additional observations from a re-analysis of the deposited data

Results flagged for a closer look

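Models assembled by the authors without a gene symbol are not part of the gene comparison above. Of 712 with a mean of at least 1 FPKM, 142 were at least 2-fold higher under ATRA in shScr cells (19.9%) and 83 were lower (11.7%), against 12.5% and 15.2% of the genes with a symbol.

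Outside small RNAs, SERF2 and LCTL passed the 2-fold mark in opposite directions in shScr cells and in cells labelled shTFEB, and this difference was not tested. SERF2 is listed at 0 in shScr vehicle and stood at 69.5 FPKM in shScr ATRA, whereas the shTFEB groups held 65.1 FPKM under vehicle and are listed at 0 under ATRA. LCTL stood at 4.28 FPKM in shScr vehicle and is listed at 0 in shScr ATRA, with 0 and 2.93 FPKM in the shTFEB groups. An exact 0 in these files can be a failed estimate, so no fold is given.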

How the results depend on the processing

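A pseudocount of 5 FPKM lowered the counts past the mark from 1384 and 1676 to 873 (higher) and 949 (lower) in shScr cells, and to 795 and 582 in cells labelled shTFEB. No other alternative moved these 4 counts by over 1.5 times. Of 46 lists 13 had a median of at least 1, and 8 did with no filter on low values. Those with a median of −1 or below numbered 3, and 5 with a pseudocount of 0.1 FPKM. Genes with a changed leading model numbered 23 where 5 FPKM were asked in both tables and 5 where the leading model had to hold 75%. Switched-on genes numbered 202 with limits of 0.5 and 5 FPKM, and 37 without genes listed at 0, where 8 were switched off. Runs of higher and lower genes numbered 9 and 2 with gaps of at most 50 kb, 48 and 28 for at least 3 genes, and 3 and 1 with a pseudocount of 5 FPKM. Of 516 named genes 438 to 516 had a value under each alternative, and among those no ratio past the mark changed sign. With a pseudocount of 5 FPKM 73 went under the mark, 8 with the highest model per symbol, 19 after median-of-ratios rescaling and 13 after upper-quartile rescaling. The rescalings moved the median of all genes from −0.15 to 0.00 and −0.03. No paired analysis was possible because the tables hold 1 value per group, and for the same reason no replicate could be left out.

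Limits follow from this: sizes are known and errors are not. Values of genes under 1 FPKM, genes listed at 0, near-identical copies and small RNAs are the least certain.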
